A study of Mus musculus with 6 samples.

Results

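Aminoacyl-tRNA synthesis genes were read as the genes that the deposited gene table assigns to the KEGG pathway "Aminoacyl-tRNA biosynthesis". The table gave 44 such genes among its 22322, and all 44 were expressed at a level that could be tested. By the place where their products are known to work, 21 encode cytosolic synthetases, 17 encode mitochondrial synthetases and 6 encode enzymes that modify an amino acid already joined to its tRNA. Gars and Kars, whose products serve both compartments, were counted as cytosolic.

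The study compared sorted DP thymocytes (CD4+CD8+ cells of the thymus) of control and Paxbp1 cKO mice by RNA-Seq, to ask which genes change when Paxbp1 is lost, with 3 libraries per genotype. The control mice were Paxbp1 fl/fl littermates, and the Paxbp1 cKO mice were Paxbp1 fl/fl animals that also carried an Lck-cre transgene. All mice had the C57BL/6 background, were 4 to 7 weeks old, of mixed sexes, and untreated, and both groups carried the floxed exon 8. Lck-cre is active in T lineage cells from the DN stage, before the DP stage, and no Cre is named for the controls. Since the labels do not say whether each library came from a separate mouse, the p-values measure the spread between these libraries. Paxbp1 itself had 40.1, 16.3 and 15.5 CPM (counts scaled to the normalised library size) in control libraries 1 to 3. In the libraries labelled cKO 1 to 3 it had 38.8, 47.1 and 49.6 CPM (log2 fold change 0.92). It did not pass with edgeR (adjusted p = 0.0977) and passed as higher with DESeq2 (adjusted p = 0.0227). Counts per gene do not measure the deleted exon, so these values do not check the genotypes, and each direction given for the cKO libraries rests on their labels. The paper reported from qPCR that deletion was complete by the ISP stage, which precedes the DP stage. Its western blot showed efficient loss of the protein in sorted DN and DP cells.

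An aminoacyl-tRNA synthetase joins one kind of amino acid to the tRNAs that carry the matching anticodon, with ATP as the source of energy, and so supplies the ribosome. Most amino acids are served by separate cytosolic and mitochondrial enzymes encoded by different nuclear genes, while Gars and Kars each serve both compartments. Uncharged tRNA activates the kinase Gcn2 (Eif2ak4), which phosphorylates eIF2α and favours translation of the transcription factor Atf4, and many genes of amino acid supply, several cytosolic synthetases among them, are known Atf4 targets.

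Only 5 synthetase genes were called in the libraries labelled cKO, with 3 cytosolic ones higher and 2 mitochondrial ones lower. Of the 44 genes, 3 rose and 2 fell at an edgeR adjusted p below 0.05, where 4.47% of the 11488 tested genes rose and 5.89% fell. The 3 that rose (Rars, Yars and Aars) were all cytosolic, and the 2 that fell (Vars2 and Sars2) were both mitochondrial. None of the 44 changed by more than 2-fold, while 2.76% of the tested genes passed the test with a change of that size. The 5 calls among 44 genes are near the background of 10.4% called in either direction, so the number of calls does not set these genes apart. Without control 2, and without cKO 3, 0 of the 44 genes were called in either direction. Over all genes, 178 and 42 were then called higher and 235 and 78 lower.

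For 4 of the 5 called genes a promoter was found in the RefSeq table of mouse promoters (build GRCm38.p6), which matched 32 of the 44 genes by symbol, Rars not among them. The sequences below run from 150 bases before the transcription start to 30 bases after it, 5′ to 3′ on the strand of the gene, and are shown because these genes carry the changes in opposite directions. The printed window of Aars is chr8:111033692-111033871 (plus strand), that of Yars chr4:129189753-129189932 (plus strand), that of Vars2 chr17:35667563-35667742 (minus strand) and that of Sars2 chr7:28741818-28741997 (plus strand). Capitals mark matches, on either strand, to the CEBP-ATF composite element TGATGNAA, which Atf4 dimers are known to bind, to the NRF1 element GCATGCGC, to the ETS element CCGGAAGT or to the E-box CACGTG.
Aars: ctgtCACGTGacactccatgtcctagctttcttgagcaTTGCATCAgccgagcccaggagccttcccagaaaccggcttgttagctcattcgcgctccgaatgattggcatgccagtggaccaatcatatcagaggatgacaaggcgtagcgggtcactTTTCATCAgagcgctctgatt
Yars: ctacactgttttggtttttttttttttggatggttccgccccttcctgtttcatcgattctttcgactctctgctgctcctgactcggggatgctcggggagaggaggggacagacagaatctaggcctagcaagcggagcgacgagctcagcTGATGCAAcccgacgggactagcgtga
Vars2: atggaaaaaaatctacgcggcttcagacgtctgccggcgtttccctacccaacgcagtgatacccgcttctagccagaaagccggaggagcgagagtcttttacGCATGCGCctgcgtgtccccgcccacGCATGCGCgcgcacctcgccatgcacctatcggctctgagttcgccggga
Sars2: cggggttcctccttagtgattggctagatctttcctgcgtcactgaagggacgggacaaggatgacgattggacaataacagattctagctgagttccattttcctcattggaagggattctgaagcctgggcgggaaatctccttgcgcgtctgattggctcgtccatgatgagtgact
The promoter of Aars held the E-box at -146 to -141 and the CEBP-ATF composite at -112 to -105 and at 10 to 17, both on the minus strand. That of Yars held the composite at 4 to 11, just past the start. Vars2 had the NRF1 element at -46 to -39 and again at -20 to -13. None of the 4 sets of letters was found in the window of Sars2.

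Across the whole 300-base windows of the table (250 bases before and 50 after the start), the CEBP-ATF composite was found for 5 of the 32 matched genes, where 3.97% of 32851 promoters held it. The 5 were Aars, Yars, Gars (-30 to -23), Iars (8 to 15) and Tars (-15 to -8), which made 5 of the 14 cytosolic synthetases matched and 0 of the 14 mitochondrial ones. Rars, Hars, Vars and Nars had no entry, so the table does not cover several of the genes with separated groups. Iars, with the composite, had a log2 fold change of -0.06, so the letters and the change did not go together in every gene. The NRF1 element was found for Vars2, Wars2, Rars2 and Mtfmt (4 of 32, against 2.71% of all promoters), the ETS element for 3 of 32 (against 3.89%) and the E-box for 5 of 32 (against 7.15%). No match overlapped another, and a match of letters does not show binding.

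Per transcript length, the cytosolic synthetases were the most abundant of the 44 genes. Their mean FPKM over the 6 libraries (the deposited value, a rate scaled to transcript length and depth) had a median of 40.3, against 11.5 for the mitochondrial synthetases and 9.34 for the enzymes acting on charged tRNA. Dars, which charges aspartate, stood highest with 117 ± 11.0 FPKM in the control libraries and 114 ± 5.64 in the libraries labelled cKO (mean ± S.D., n = 3). Kars (lysine) and Gars (glycine), the enzymes shared with mitochondria, followed at means of 99.3 and 67.8 FPKM over all libraries. The lowest cytosolic levels were those of Lars (leucine) at 23.6 FPKM, Iars (isoleucine) at 18.2 FPKM and Tarsl2, a second threonyl enzyme, at 2.82 FPKM. Among the mitochondrial genes Fars2, Yars2 and Tars2 were highest at 25.3, 25.2 and 19.4 FPKM, and Mars2, Wars2 and Ears2 lowest at 3.60, 3.15 and 2.24 FPKM. The levels of the third group ran from 4.51 FPKM for Gatb to 17.5 FPKM for Pstk.

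**Figure D1:**
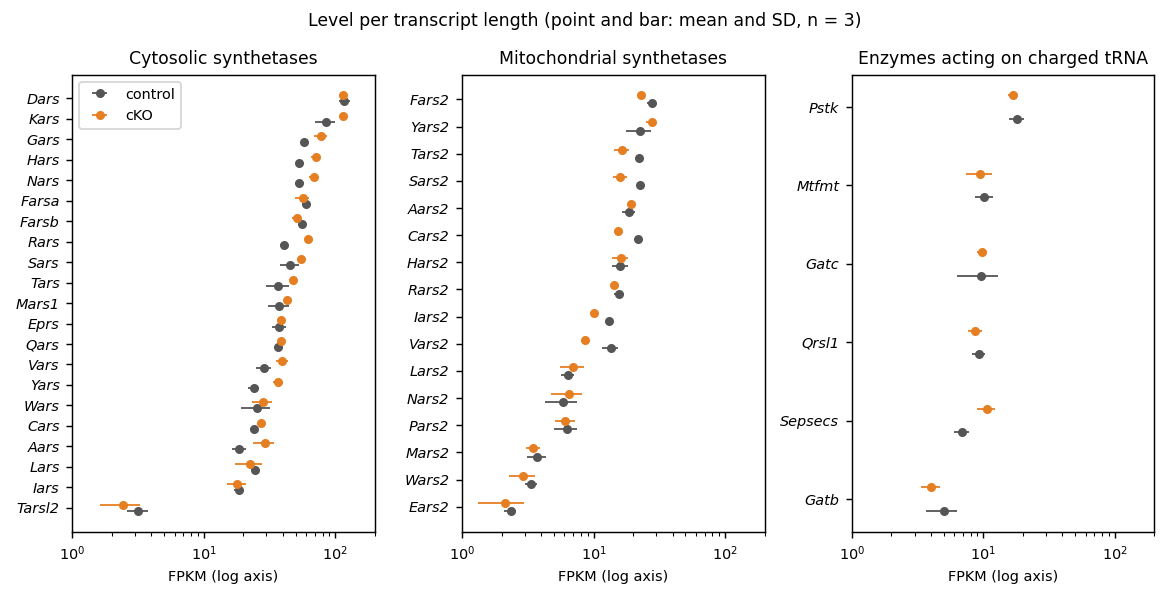
Level of the reported genes in FPKM (log axis) by role, with genes ordered by level. Points and bars are the mean and SD of 3 control (grey) and 3 cKO (orange) libraries; nearly all cytosolic genes lie above 10 FPKM, Tarsl2 (2.82 FPKM) being the exception, and the mitochondrial genes drawn lie below 30.

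Of the 21 cytosolic synthetase genes, 3 rose and 0 fell in the libraries labelled cKO, and the other 18 did not pass. With DESeq2, and at an unadjusted edgeR p below 0.05, 0 were lower, where 14.6% of all tested genes were lower and 13.3% higher at that unadjusted p. DESeq2 passed 7.68% of its tested genes as lower. Without regard to the test, 14 had a positive log2 fold change and the median was 0.17, against -0.0017 over all tested genes, of which 49.8% were positive. The median was 0.082 without control 1, 0.264 without control 2 and 0.265 without control 3, and several of the 14 values lay within their standard error, as for Eprs (0.02, standard error 0.12). In 8 genes each library labelled cKO lay above each control library (Rars, Yars, Aars, Gars, Hars, Vars, Kars and Nars), and in 0 genes the reverse held, where 33.0% of the tested genes were apart, 15.7% upwards and 17.3% downwards. Gars and Kars of these 8 also serve mitochondria.

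**Figure D2:**
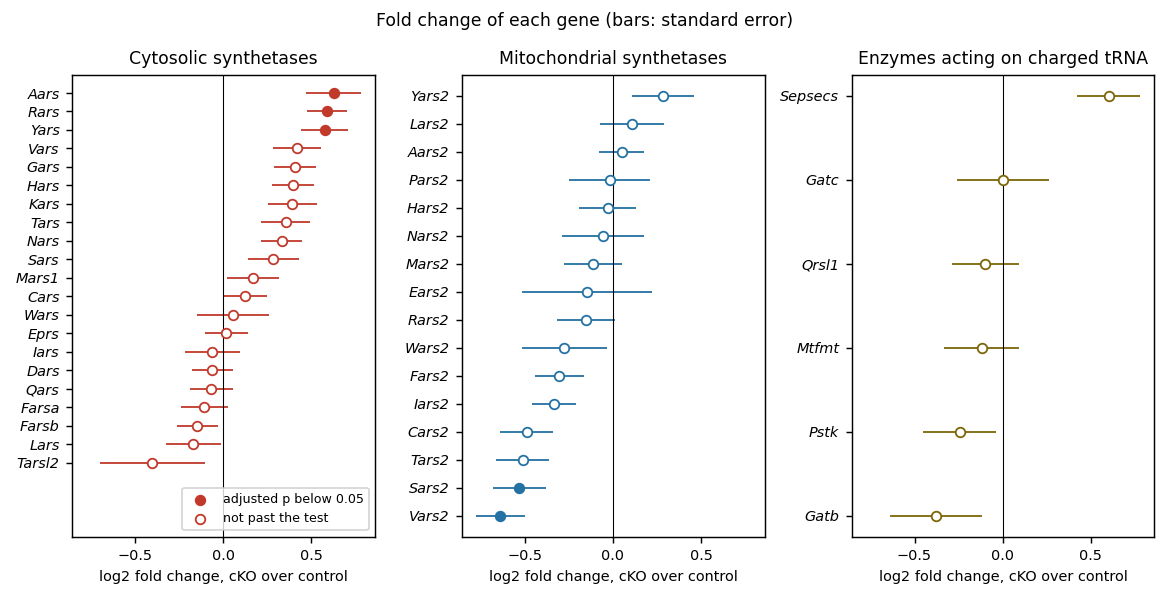
Log2 fold change of the reported genes, cKO over control, by role, with its standard error as a bar and filled points for an edgeR adjusted p below 0.05. Rars, Yars and Aars lie at 0.58 to 0.63 among the cytosolic genes, while Sars2 and Vars2 lie at -0.53 and -0.64 among the mitochondrial ones.

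Rars (ENSMUSG00000018848) encodes the arginyl enzyme of the cytosol. It measured 84.1, 82.8 and 94.9 CPM in control libraries 1 to 3, and 130, 133 and 130 CPM in the libraries labelled cKO. The groups lay well apart, with the cKO libraries close together. Rars rose 1.50-fold (log2 fold change 0.59, standard error 0.11, edgeR's adjusted p = 0.0129). Yars (ENSMUSG00000028811), for tyrosine, measured 60.8, 73.4 and 75.1 CPM against 99.2, 99.0 and 114 CPM, again without overlap, and rose 1.49-fold (log2 fold change 0.58, standard error 0.13, edgeR's adjusted p = 0.0246). Aars (ENSMUSG00000031960), for alanine, had the widest spread of the 3, at 95.2, 99.4 and 121 CPM in controls and 135, 158 and 194 CPM in cKO. The lowest cKO library of Aars still exceeded the highest control. Its rise was 1.54-fold (log2 fold change 0.63, standard error 0.16, edgeR's adjusted p = 0.0323). In GENCODE M21, Aars shares 1326 nt of exon sequence (14.3%) with Exosc6 on the same strand, so reads of both could have been counted together.

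These calls depended on which libraries were kept, as did those over all genes. The genes called higher numbered 514 with all libraries, and from 42 without cKO 3 to 1000 without control 1. With 1 library left out in turn, Rars lost the call without control 2 or cKO 3 (edgeR's adjusted p up to 0.0709), Aars without control 2, cKO 2 or cKO 3 (up to 0.149), and Yars without control 2 or any one of the cKO libraries (up to 0.128). The log2 fold changes stayed between 0.47 and 0.74 throughout.

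Gars, Hars, Vars and Kars passed under DESeq2 but not under edgeR, and DESeq2 also passed 7.67% of 12370 tested genes as higher. Gars measured 140, 132 and 144 CPM in controls and 203, 163 and 186 CPM in cKO, and Hars, for histidine, 98.5, 105 and 111 against 130, 129 and 153 CPM. Vars, for valine, had 100, 116 and 129 CPM against 164, 135 and 161 CPM. Kars ran from 144 to 206 CPM in controls and stayed at 227 to 228 CPM in cKO. None of the 4 genes overlapped between the groups, and their log2 fold changes were 0.41, 0.40, 0.42 and 0.39 (edgeR's adjusted p = 0.0554, 0.0615, 0.0729 and 0.0937, DESeq2 adjusted p = 0.0187, 0.0261, 0.0331 and 0.0488). Nars, for asparagine, was apart as well with a log2 fold change of 0.33 (edgeR's adjusted p = 0.0964). The remaining 13 cytosolic genes overlapped, with log2 fold changes from -0.40 (Tarsl2, edgeR's adjusted p = 0.419) to 0.35 (Tars, edgeR's adjusted p = 0.134).

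**Figure D3:**
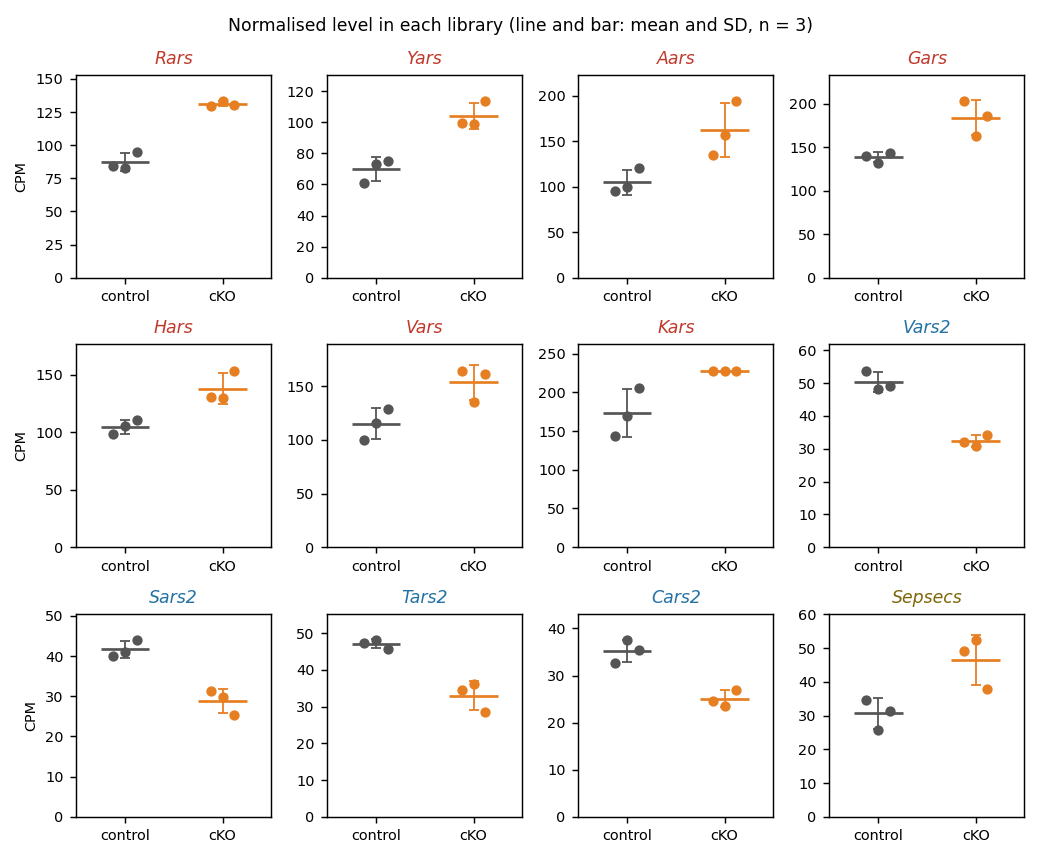
Normalised level in CPM of the 12 genes with an adjusted p below 0.05 in edgeR or DESeq2, 1 point per library, with the mean and SD of 3 libraries (cytosolic names in red, mitochondrial in blue, Sepsecs in brown; the axis starts at 0). In each panel the groups do not overlap, as for Rars with 82.8 to 94.9 CPM in controls and 130 to 133 CPM in cKO.

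Of the cytosolic enzymes, 8 are known to sit in the multisynthetase complex (Dars, Eprs, Iars, Kars, Lars, Mars1, Qars and Rars) and 12 to work outside it. In a grouping made after the values were seen, the 8 had a median log2 fold change of -0.02 with 4 positive, and the 12 a median of 0.34 with 10 positive. Rars and Kars were the members of the complex with separated groups. The scaffold genes of the complex did not pass, with log2 fold changes of -0.31 for Aimp1, 0.35 for Aimp2 and 0.41 for Eef1e1 (edgeR's adjusted p = 0.260, 0.147 and 0.113).

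Of the 17 mitochondrial synthetase genes, 2 fell and 0 rose in the libraries labelled cKO, and the other 15 did not pass. Of all tested genes 5.89% fell and 4.47% rose. With DESeq2, and at an unadjusted edgeR p below 0.05, 0 were higher, where 7.67% and 13.3% of all tested genes were. Among 17 genes, a count of 0 does not set the group apart from these shares. Without regard to the test, 13 had a negative log2 fold change and the median was -0.15, with several values within their standard error, as for Pars2 (-0.02, standard error 0.23). Over all tested genes 49.8% were positive and the median was -0.0017. In 7 genes each cKO library lay below each control library (Vars2, Sars2, Tars2, Cars2, Iars2, Fars2 and Wars2), and in 0 genes above. Those 7 stand beside a background of 17.3% of tested genes apart downwards.

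Vars2 (ENSMUSG00000038838) encodes the mitochondrial valyl enzyme. It measured 53.8, 48.2 and 49.2 CPM in controls and 32.1, 30.7 and 34.2 CPM in cKO. The groups were separated by a wide gap. Vars2 fell 1.56-fold (log2 fold change -0.64, standard error 0.14, edgeR's adjusted p = 0.0196). Sars2 (ENSMUSG00000070699), which charges serine, measured 39.9, 41.1 and 44.0 CPM against 31.2, 29.9 and 25.4 CPM, without overlap, and fell 1.45-fold (log2 fold change -0.53, standard error 0.15, edgeR's adjusted p = 0.0497). Vars2 shares 465 nt (8.52%) of its exon sequence with the antisense gene Gm20483, and no source used here states whether the counting was stranded. Vars2 lost the call without control 2 or any one of the cKO libraries (edgeR's adjusted p up to 0.0751), and Sars2 without any library except control 1 (up to 0.187).

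Tars2 and Cars2, for threonine and cysteine, passed under DESeq2 alone, where 7.68% of genes were lower. Tars2 had 47.4, 48.1 and 45.7 CPM in controls and 34.5, 36.1 and 28.4 CPM in cKO, and Cars2 had 32.7, 37.5 and 35.4 CPM against 24.7, 23.5 and 27.0 CPM. Both were apart, with log2 fold changes of -0.51 and -0.49 (edgeR's adjusted p = 0.0535 and 0.0645, DESeq2 adjusted p = 0.0290 and 0.0489). Iars2, Fars2 and Wars2 had log2 fold changes of -0.33, -0.30 and -0.28 (edgeR's adjusted p = 0.109, 0.188 and 0.496). The other 10 genes overlapped between the groups and did not pass, among them Rars2 at -0.15 and Yars2 at 0.28 (edgeR's adjusted p = 0.591 and 0.331).

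Of the 6 enzymes that act on a charged tRNA, 0 passed the edgeR test, and their median log2 fold change was -0.11 (-0.18 without control 3 and -0.07 without cKO 3). At an unadjusted edgeR p below 0.05, and with DESeq2, Sepsecs was the 1 gene of the group with a difference, and 0 were lower. Over all tested genes 13.3% and 7.67% were higher by these measures, and 14.6% and 7.68% lower. Sepsecs converts phosphoseryl-tRNA to selenocysteinyl-tRNA. It measured 34.8, 25.8 and 31.3 CPM in controls and 49.1, 52.4 and 38.0 CPM in cKO, so that the groups did not overlap (log2 fold change 0.60, standard error 0.18, edgeR's adjusted p = 0.0565, DESeq2 adjusted p = 0.0192). Pstk, the kinase that acts just before it in the same route, had a log2 fold change of -0.24 (edgeR's adjusted p = 0.477), and 58.8% of its exon sequence lies opposite Ikzf5. Qrsl1, Gatb and Gatc, the subunits of the mitochondrial glutaminyl-tRNA amidotransferase, had log2 fold changes of -0.10, -0.38 and 0.00, and Mtfmt, which formylates the initiator methionyl-tRNA of mitochondria, had -0.12.

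The ratio of the cytosolic to the mitochondrial enzyme for the same amino acid, formed within each library, needs no scaling between libraries. For 17 such pairs the mean log2 ratio was higher in the libraries labelled cKO in 15, with a median difference of 0.38. Vars to Vars2 differed most. There were 1.86, 2.40 and 2.62 Vars counts per Vars2 count in controls and 5.12, 4.40 and 4.71 in cKO, a log2 difference of 1.06 ± 0.16 (standard error). Tars to Tars2, Sars to Sars2, Rars to Rars2, Cars to Cars2 and Aars to Aars2 were apart as well, with log2 differences of 0.89, 0.84, 0.74, 0.61 and 0.56. For these 6 pairs the exact two-sided permutation test gave p = 0.1, the smallest that 3 libraries against 3 allow, and 0.283 after Benjamini-Hochberg adjustment over the 17 pairs. The differences of 2 pairs were negative, that of Lars to Lars2 among them at -0.29, and their groups overlapped. The ratios are formed from the same counts as the cytosolic and mitochondrial changes given above and are not separate evidence of them. Eprs, which charges glutamate and proline, is the cytosolic enzyme of 2 pairs. Ratios of other genes were not formed, so the numbers of positive and separated pairs have no background share beside them. Without control library 1 the median difference was 0.19.

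**Figure D4:**
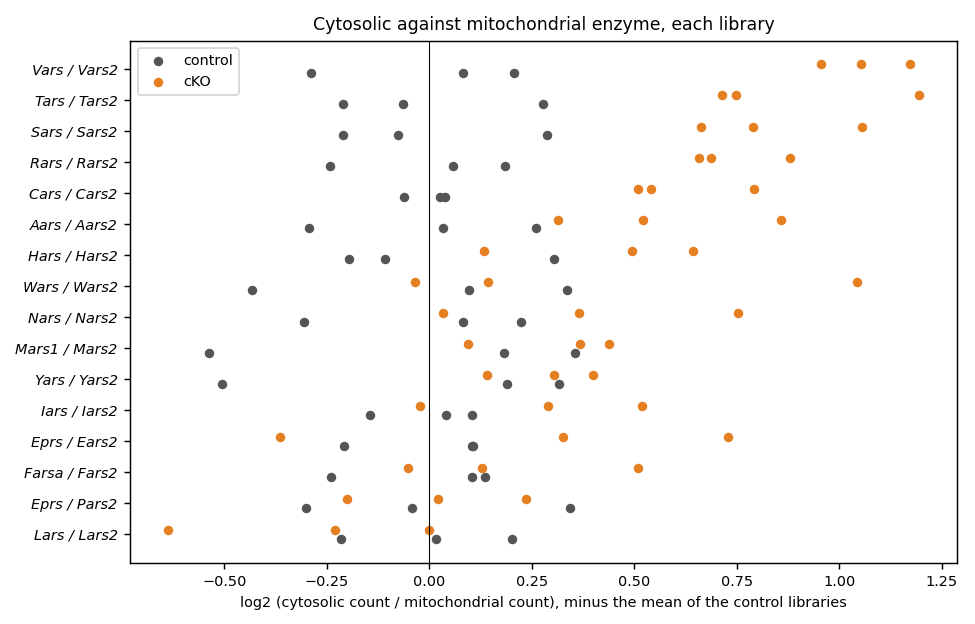
Log2 ratio of the count of the cytosolic to that of the mitochondrial enzyme for the reported amino acid pairs, minus the mean of the control libraries, with 1 point per library (control grey, cKO orange). The 6 pairs at the top, from Vars / Vars2 (difference 1.06) to Aars / Aars2 (0.56), show no overlap, and Lars / Lars2 at the bottom differs in the other direction (-0.29).

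Summed over genes, the cytosolic synthetases took 0.218%, 0.236% and 0.244% of all counts in control libraries 1 to 3 and 0.271%, 0.269% and 0.282% in the libraries labelled cKO. The mitochondrial synthetases took 0.0627%, 0.0584% and 0.0588% in controls and 0.0534%, 0.0548% and 0.0534% in cKO. Both sums were apart, in opposite directions. Gars and Kars, which serve both compartments, are in the cytosolic sum alone. Cytosolic counts per mitochondrial count went from 3.48, 4.04 and 4.15 in controls to 5.07, 4.90 and 5.28 in cKO, with control 1 the lowest.

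In bulk libraries, fewer cells of a type and less RNA per cell cannot be told apart, and several marker genes moved with the genotype. Over all tested genes 4.47% rose and 5.89% fell, the shares beside which the marker counts stand. The 10 markers of DP thymocytes were all expressed and summed to 11545 to 13431 CPM in controls and 8606 to 10109 CPM in cKO, and 3 of them fell (Rag1, Cd3e and Cd8b1). Of 13 macrophage markers, 10 could be tested and 6 rose, with sums of 17.3 to 31.1 CPM against 57.7 to 83.4 CPM. The tested ones that did not pass were C1qa, Lyz2, Csf1r and Hmox1 (edgeR's adjusted p = 0.0572, 0.0778, 0.837 and 0.637). Csf1r had a log2 fold change of 0.22 and Hmox1 one of -0.27. Among the defining ones, Mertk and Marco were at 0 in every library and Adgre1 and Fcgr1 at 0 in every control. Markers of cycling cells summed to 3458 to 5287 CPM in controls and 5550 to 7112 CPM in cKO. The 4 of 10 that rose were the replication genes Mcm2, Mcm4, Mcm5 and Pcna. Mki67, Top2a, Ccnb1, Cdk1, Tyms and Rrm2 did not pass (edgeR's adjusted p between 0.142 and 0.601), and Top2a had a log2 fold change of -0.16. Of 6 genes of the earlier DN and ISP stages, Hes1 and Il2ra rose (log2 fold change 2.79 and 1.24, edgeR's adjusted p = 0.00349 and 0.0212). The other 4 had negative log2 fold changes and did not pass. The list summed to 651 to 696 CPM in controls and 564 to 643 CPM in cKO. Most of that sum came from Tcf12, with 521 to 615 CPM in controls and 435 to 509 CPM in cKO (edgeR's adjusted p = 0.144). The sum therefore mainly follows Tcf12 and does not describe the list as a whole. Of 6 B cell markers 1 could be tested with edgeR, Cd79b, and it fell. The list summed to 40.9 to 45.9 CPM against 25.8 to 28.9 CPM, nearly all of it from Cd79b. Cd79b alone had 40.2 to 45.0 CPM in controls and 23.3 to 28.2 CPM in cKO. No other B cell marker exceeded 1.05 CPM in any library, so the sum follows that 1 gene. With edgeR, 3 of 7 dendritic, 5 of 6 erythroid and 3 of 7 thymic epithelial markers could be tested, and Clec9a, Krt5 and Krt14 were at 0 in every library. No marker of dendritic, erythroid or thymic epithelial cells passed with edgeR or DESeq2, and 1 had an unadjusted edgeR p below 0.05. Without cKO 3 the calls of these markers were all lost except those of Adgre1, Mcm4 and Hes1. The part of these cells in the changes of the synthetase genes was not tested.

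Genes around the charging of tRNA were read from lists of known function. The elongation factors deliver charged tRNA to the ribosome, and in the list that holds them with the scaffold genes 2 of 7 tested genes rose and 0 fell, where 4.47% of all tested genes rose and 5.89% fell. With DESeq2, and at an unadjusted edgeR p below 0.05, 0 of the 7 were lower, where 7.68% and 14.6% of all tested genes were. The list had a median log2 fold change of 0.40. Eef1g measured 132, 182 and 183 CPM in controls and 279, 284 and 306 CPM in cKO (log2 fold change 0.81, edgeR's adjusted p = 0.00923). Eef1b2 had 104, 129 and 144 CPM against 185, 180 and 192 CPM (log2 fold change 0.56, edgeR's adjusted p = 0.0276). Both lie apart between the groups and encode subunits of the complex that exchanges the nucleotide of Eef1a. Eef1a1 itself, which binds the charged tRNA, had a log2 fold change of 0.24 (edgeR's adjusted p = 0.281). Eef1g lost the call without cKO 3, and Eef1b2 without control 2 or any one of the cKO libraries.

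On the lists of genes that make and repair tRNA the calls were 1 of 8, 1 of 20 and 1 of 21 genes, beside 10.4% of all tested genes, so their number does not set these lists apart. Of the 8 genes of proofreading and recycling 1 rose, Trnt1, which adds the CCA end on which every amino acid is loaded. It measured 54.1, 53.4 and 58.6 CPM in controls and 87.0, 86.3 and 91.8 CPM in cKO, far apart (log2 fold change 0.67, edgeR's adjusted p = 0.00938). Among 20 genes of processing and export 1 rose, with a median of 0.37. It was Ssb, whose product La protects the ends of new tRNAs, at 177 to 182 CPM against 240 to 259 CPM (log2 fold change 0.48, edgeR's adjusted p = 0.0193). Among 21 genes of transcription by RNA polymerase III 1 fell, with a median of 0.04. It was Brf1, a subunit of the initiation factor TFIIIB, at 162, 151 and 167 CPM in controls and 101, 118 and 93.0 CPM in cKO (log2 fold change -0.62, edgeR's adjusted p = 0.0147). Trnt1 lost the call without cKO 3, Brf1 without cKO 1 or cKO 3, and Ssb without any library except control 1.

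The next list held the eIF2 kinases, of which Eif2ak4 is the one that senses uncharged tRNA, with other genes around eIF2 phosphorylation. Of its 10 tested genes 1 rose and 0 fell, beside the 4.47% and 5.89% of all tested genes, with a median of 0.31. With DESeq2 or at an unadjusted edgeR p below 0.05, 0 were lower, beside 7.68% and 14.6% of all tested genes. The 1 that rose was Eif2s1, which encodes eIF2α, from 185, 222 and 237 CPM to 300, 288 and 324 CPM (log2 fold change 0.50, edgeR's adjusted p = 0.0312). It lost the call without control 2 or any one of the cKO libraries. Eif2ak4 had a log2 fold change of 0.02 (edgeR's adjusted p = 0.975), and Atf4 one of 0.44 (edgeR's adjusted p = 0.0811, DESeq2 adjusted p = 0.0296), with 172 to 242 CPM in controls and 249 to 314 CPM in cKO.

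Of 20 tested Atf4 targets of amino acid supply and stress 6 rose and 2 fell, with a median of 0.60, where 4.47% of all tested genes rose and 5.89% fell. The list was written with earlier results known, which already held the rise of Ddit3. The 4 with the lowest adjusted p were Ddit4, Vldlr, Cebpb and Atf3. Ddit4, an inhibitor of mTORC1, went against the majority at 49.4, 43.1 and 51.4 CPM in controls and 19.9, 18.5 and 20.5 CPM in cKO (log2 fold change -1.29, edgeR's adjusted p = 0.00349). Vldlr, a lipoprotein receptor, fell from 1.59 to 1.94 CPM in controls to 0.137 CPM in cKO 1 and 0 in cKO 2 and 3 (edgeR's adjusted p = 0.0175). The controls held 33, 31 and 50 counts, and the cKO level rests on 3 counts. The transcription factor gene Cebpb rose from 39.4, 29.9 and 49.9 CPM to 75.6, 61.5 and 78.4 CPM (log2 fold change 0.85, edgeR's adjusted p = 0.0228), and Atf3 was at 0 to 0.349 CPM in controls and 1.67 to 5.07 CPM in cKO (edgeR's adjusted p = 0.0330). The other 4 called genes were the stress factor Ddit3 and, for the supply of serine and one-carbon units, Mthfd2, Shmt2 and Psat1, all higher, at log2 fold changes of 1.04, 0.63, 0.66 and 0.73 (edgeR's adjusted p between 0.0373 and 0.0447). Of the 8 genes, Ddit4 alone kept its call whichever library was left out. Cebpb lost it without control 2, cKO 1 or cKO 3, Ddit3 without those or control 3, and Vldlr without control 2, control 3, cKO 2 or cKO 3. Atf3 and Mthfd2 lost it without any library except control 1, and Shmt2 and Psat1 without control 2 or any one of the cKO libraries.

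**Figure D5:**
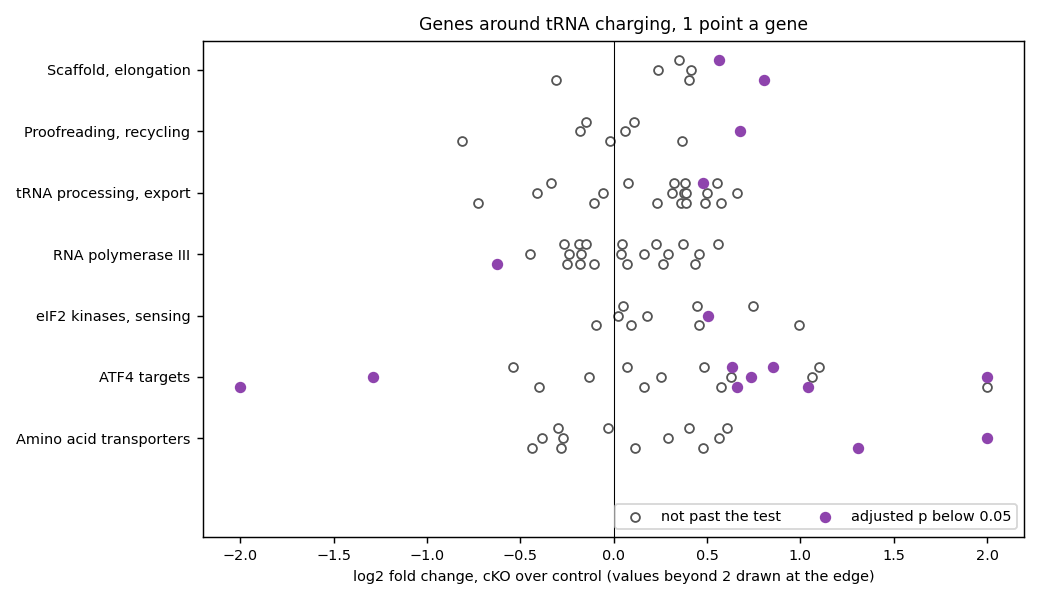
Log2 fold change, cKO over control, of the tested genes on 7 lists around tRNA charging, 1 point per gene and filled for an edgeR adjusted p below 0.05, with values beyond 2 drawn at the edge. The scaffold and elongation list has 2 filled points, at 0.56 and 0.81, and the Atf4 targets have 6 on the right and 2 on the left.

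Among 14 tested amino acid transporters 2 rose and 0 fell, beside 4.47% and 5.89% of all tested genes, with a median of 0.20. With DESeq2 2 were lower, and 2 at an unadjusted edgeR p below 0.05, beside 7.68% and 14.6% of all tested genes. Slc7a5, the light chain of the carrier of large neutral amino acids, measured 51.0, 40.5 and 52.9 CPM in controls and 109, 96.0 and 153 CPM in cKO (log2 fold change 1.31, edgeR's adjusted p = 0.00518), and kept its call whichever library was left out. Its partner Slc3a2 had a log2 fold change of 0.40 (edgeR's adjusted p = 0.143). Slc7a3, a carrier of arginine and lysine, was at 0 in every control and at 2.05, 1.93 and 0.646 CPM in cKO (edgeR's adjusted p = 0.0126), at least 10.9-fold higher against a floor of 3 counts per control library, and lost the call without cKO 1 or cKO 3.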

How the data were processed

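RNA of sorted DP thymocytes was sequenced in 6 libraries, 3 per genotype, grouped by the sample labels. The deposited table holds, per gene, the raw counts of each library and the FPKM values, which the authors normalised for gene length and depth. The submitters' processing notes name fastp 0.18.0, Bowtie2 2.2.8, HISAT2, RSEM and StringTie; they give no genome build or annotation. The labels and the study's methods name different cDNA kits, and both amplify cDNA before library construction. The table also holds the mean FPKM of each group, the log2 ratio of these means and the p-values and FDR that the authors obtained from their own comparison, and these deposited columns were not used.

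Libraries held 18963775 to 26252248 counts, so 1 count equalled 0.0381 to 0.0527 CPM, and intervals between libraries also carry the error of counting. Libraries of one group were no duplicates of each other, with a chi-square of 19.7 to 68.0 per degree of freedom. Control 1 stood furthest from the other controls, at 56.1 against control 2 and 68.0 against control 3. Controls 2 and 3 gave 19.7, and the cKO libraries 23.8 to 38.3. The filter on low counts was filterByExpr (minimum count 10, minimum total 15), and genes were tested in R 4.3.3 with edgeR 4.0.16 (TMM factors 0.981 to 1.01, quasi-likelihood test, genotype as the only term, Benjamini-Hochberg adjustment over 11488 genes, threshold 0.05). Alternatives were DESeq2 1.42.0, RLE factors, total counts, limma-voom (limma 3.58.1), no filter, a minimum mean of 5 CPM, the replicate number as a block and leaving out each library. The standard error of an edgeR log2 fold change was derived from the test, as its absolute value divided by the square root of the quasi-likelihood F. Pair ratios were compared by an exact two-sided permutation test. Scripts were tested on simulated data.

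Members and lists were chosen with earlier results of these data known. Values per library are given for members past an adjusted p of 0.05 in edgeR or DESeq2, levels for the 3 highest and 3 lowest of each role, and from each companion list at most 4 called genes by adjusted p, with Atf4, Eif2ak4 and Paxbp1. Other companion genes were named after their values were seen. Exon overlaps are from GENCODE M21, matched by identifier for 22267 genes, and promoters from RefSeq (GRCm38.p6). Values of 1 mitochondrial member are not reported here, though counts, medians and sums include it.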

Additional observations from a re-analysis of the deposited data

How the results depend on the processing

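No change of direction was found for the 12 genes with values per library in any of the alternatives run. With DESeq2, 8 of the 44 genes were higher (7 cytosolic, 1 acting on charged tRNA) and 4 lower (4 mitochondrial). On companion lists 20 were higher and 6 lower. Of 12370 genes tested with DESeq2, 949 (7.67%) were higher and 950 (7.68%) lower. With total counts alone, 5 genes were higher (5 cytosolic) and 1 lower (1 mitochondrial), where 578 of all genes were higher and 602 lower. With a filter at a mean of 5 CPM, 6 were higher (5 cytosolic, 1 acting on charged tRNA), and the mitochondrial median was -0.12. That filter gave 625 of all genes higher and 702 lower. RLE factors and no filter each left 1 lower (1 mitochondrial), as Sars2 lost its call, where 633 and 755 of all genes were lower. Deviations of same-numbered libraries from their group means had correlations of 0.045, 0.038 and -0.030. With 3 libraries per group these values cannot show whether libraries were paired. The fit with the replicate block left 1 lower (1 mitochondrial), where 668 of all genes were lower. Limma-voom added Tars2.

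With 1 library left out in turn, 42 to 1000 of all genes were higher and 78 to 1030 lower. Of the 44 genes, 0 to 6 were higher and 0 to 4 lower, with 0 to 5 cytosolic genes higher, 0 to 4 mitochondrial genes lower and 0 to 1 of those acting on charged tRNA higher. Companion lists had 1 to 21 higher and 1 to 4 lower. The fewest calls came without cKO 3 and the most without control 1, where Tars2, Gars, Sepsecs, Cars2 and Tars passed as well. Medians stayed between 0.082 and 0.265 (cytosolic), -0.20 and -0.10 (mitochondrial) and -0.18 and -0.07 (charged tRNA). The median of the pair differences lay between 0.19 and 0.44, with 13 to 15 pairs positive. The causes were not tested. Differences of low genes such as Ears2 (standard error 0.37 on the log2 scale) were not detectable at this depth unless large.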

Other observations

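Several of the 44 genes start back to back with a gene on the other strand, within 1000 nt. The start of Yars lies 33 nt from that of S100pbp, which had a log2 fold change of -0.06 (edgeR's adjusted p = 0.881) beside 0.58 for Yars. Sars2 starts 172 nt from Mrps12, which encodes a protein of the mitochondrial ribosome and had a log2 fold change of -0.11 (edgeR's adjusted p = 0.692) beside -0.53 for Sars2. The pair Rars2 and Orc3 starts 13 nt apart, with log2 fold changes of -0.15 and 0.36 (edgeR's adjusted p = 0.591 and 0.175), and Kars and Terf2ip start 75 nt apart, with 0.39 and 0.27 (edgeR's adjusted p = 0.0937 and 0.268). Hars and Hars2, the cytosolic and the mitochondrial histidyl enzyme, overlap head to head by 195 nt of exon sequence, and had log2 fold changes of 0.40 and -0.03 (edgeR's adjusted p = 0.0615 and 0.929). Differences between neighbours were not tested. On chromosome 10, Mars1, for methionine, shares 68 nt of exon sequence with Ddit3 on the other strand. Ddit3 rose and Mars1, with a log2 fold change of 0.17, did not pass (edgeR's adjusted p = 0.0373 and 0.489).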
